A study of Mus musculus with 11 samples.

Results

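The 5 genes described here encode subunits of the sarcoglycan complex and its partner sarcospan: Sgca (alpha-sarcoglycan), Sgcb (beta-sarcoglycan), Sgcd (delta-sarcoglycan), Sgce (epsilon-sarcoglycan) and Sspn (sarcospan). They were taken by gene symbol out of 21759 symbols on the array, and all 5 passed the minimum signal. Messenger RNA of the tibialis anterior (TA) muscle was measured in 11 male mice killed at 14 weeks of age, 1 Affymetrix Mouse Gene ST 1.1 array per mouse. There were 3 wild-type mice (C57), 4 untreated mdx mice and 4 mdx mice given Pip6e-PMO. The strain label of all 11 mice reads C57/B10. The mdx mouse lacks full-length dystrophin because of a nonsense mutation in an exon of Dmd. Pip6e-PMO is a peptide-conjugated antisense oligonucleotide that makes splicing skip the mutated exon, and it was injected once into the tail vein at 12.5 mg/kg at 12 weeks of age. Both mdx groups carry the same mutation, and only 1 dose and 1 time were sampled. No injection is described for either control group, so the injection itself and the oligonucleotide cannot be told apart. RNA came from cryosections of the mid-belly of a single muscle, so the whole tissue was read and not fibres alone.

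The sarcoglycans are single-pass membrane proteins that assemble in the muscle fibre membrane, bind sarcospan, and with dystroglycan, syntrophins and dystrobrevin form the dystrophin-associated protein complex, which joins the actin cytoskeleton to laminin outside the cell. In skeletal muscle the core complex holds the alpha, beta and delta subunits among others. Epsilon-sarcoglycan is a close relative of alpha-sarcoglycan, found in many tissues, and takes its place in the complex of smooth muscle. Recessive loss of the alpha, beta or delta subunit causes limb-girdle muscular dystrophy in people, and in dystrophin-deficient fibres the whole complex is known to be depleted from the membrane as protein. The arrays read the messenger RNA of these subunits and not the protein.

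Each gene had 1 probe set on the array, marked in the deposited annotation as free of cross-hybridisation. No genome build is stated for the positions in that annotation, so they hold within it alone. In it Sgca lies on chromosome 11 (94824105 to 94837641, minus strand, 36 probes), Sgcb on chromosome 5 (74023988 to 74038983, minus strand, 28 probes) and Sgcd on chromosome 11 (46792285 to 47193024, minus strand, 29 probes). Sgce lies on chromosome 6 (4624350 to 4697100, minus strand, 27 probes) and Sspn on chromosome 6 (145882652 to 145913747, plus strand, 26 probes). The probe set of Sgcd spans 400740 bases and that of Sgce 72751, whereas those of Sspn, Sgcb and Sgca span 31096, 14996 and 13537 bases.

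The bases before the transcription start were available from RefSeq (GRCm38.p6) for 4 of the 5 genes, with 2 starts for Sspn. They are printed for Sspn, the gene that rose against mdx, for Sgcb, which rose most against C57, and for Sgca, which did not rise. Each window holds the 250 bases before the start, 5′ to 3′ on the gene's own strand. Capitals mark E boxes (CANNTG, the core recognised by myogenic bHLH factors) and M-CAT motifs (CATTCC, read on both strands, the core of TEAD factor sites), and no E box overlapped an M-CAT.
Sgca, chr11:94976328-94976577, minus strand: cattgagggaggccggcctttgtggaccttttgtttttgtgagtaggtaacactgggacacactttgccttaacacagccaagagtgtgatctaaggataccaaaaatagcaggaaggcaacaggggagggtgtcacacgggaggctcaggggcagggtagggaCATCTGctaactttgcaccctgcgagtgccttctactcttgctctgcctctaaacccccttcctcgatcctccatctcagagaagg
Sgcb, chr5:73647738-73647987, minus strand: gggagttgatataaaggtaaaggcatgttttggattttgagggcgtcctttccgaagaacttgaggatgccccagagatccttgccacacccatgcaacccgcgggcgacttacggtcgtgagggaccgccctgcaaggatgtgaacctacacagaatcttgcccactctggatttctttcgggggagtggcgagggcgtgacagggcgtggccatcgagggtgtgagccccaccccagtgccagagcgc
Sspn first start, chr6:145931623-145931872, plus strand: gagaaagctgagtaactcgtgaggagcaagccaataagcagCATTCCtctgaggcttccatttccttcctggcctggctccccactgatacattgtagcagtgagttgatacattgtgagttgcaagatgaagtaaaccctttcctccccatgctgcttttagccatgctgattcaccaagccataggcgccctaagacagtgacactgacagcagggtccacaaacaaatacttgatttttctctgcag
Sspn second start, chr6:145933872-145934121, plus strand: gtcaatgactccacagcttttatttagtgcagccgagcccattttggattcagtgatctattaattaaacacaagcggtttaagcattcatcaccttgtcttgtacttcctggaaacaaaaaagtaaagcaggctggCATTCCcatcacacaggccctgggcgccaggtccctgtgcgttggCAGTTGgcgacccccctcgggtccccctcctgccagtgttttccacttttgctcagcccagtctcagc

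The M-CAT letters stood once before each start of Sspn and once before Sgcd, and neither before Sgca nor before Sgcb. They occur in 12.6% of the 32851 windows of this length. E-box letters, present in 66.2% of all windows, were found 2 times before Sgcd, once before Sgca and once before the second start of Sspn. The Sgcb window held 1 GC box (GGGCGG, in 32.7% of windows) at -124 from the start and 1 TATAAA (in 12.4%) at -241, but neither motif marked in capitals. No CArG box and no MEF2 site was found in any of the 5 windows, where 1.47% and 2.92% of all windows hold one. GC content ran from 48.0% in the first Sspn window to 58.4% in that of Sgcb. These are matches of letters and not measured binding.

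Across the arrays the median intensity ran from 27.5 to 28.6, and the skeletal muscle fibre markers fixed for the check of the tissue (Acta1, Ckm, Tnnt3, Myh4, Mylpf and Actn3) were high in every mouse, with a summed signal of 40291 to 44072. Of the Pip6e-PMO-treated mice, mouse 2 stood apart. Deviations from the all-mouse means were summarised for each array by their median absolute deviation, scaled to estimate an SD. It was 0.285 log2 units in mouse 2, against 0.115 to 0.193 in the other 10 mice. The array of mouse 2 had a limma weight of 0.256, against 0.541 to 3.03. The study reports that its treated sample T2 had the lowest therapeutic efficacy by RT-qPCR of exon skipping and by mass spectrometry of dystrophin. The study's western blot values were not significantly correlated with either measure. Sample T2 bears the same number, so leaving mouse 2 out may drop the weakest responder by RT-qPCR and mass spectrometry. What sets mouse 2 apart was not tested. The treated differences of the 5 genes are given with and without it.

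**Figure D1:**
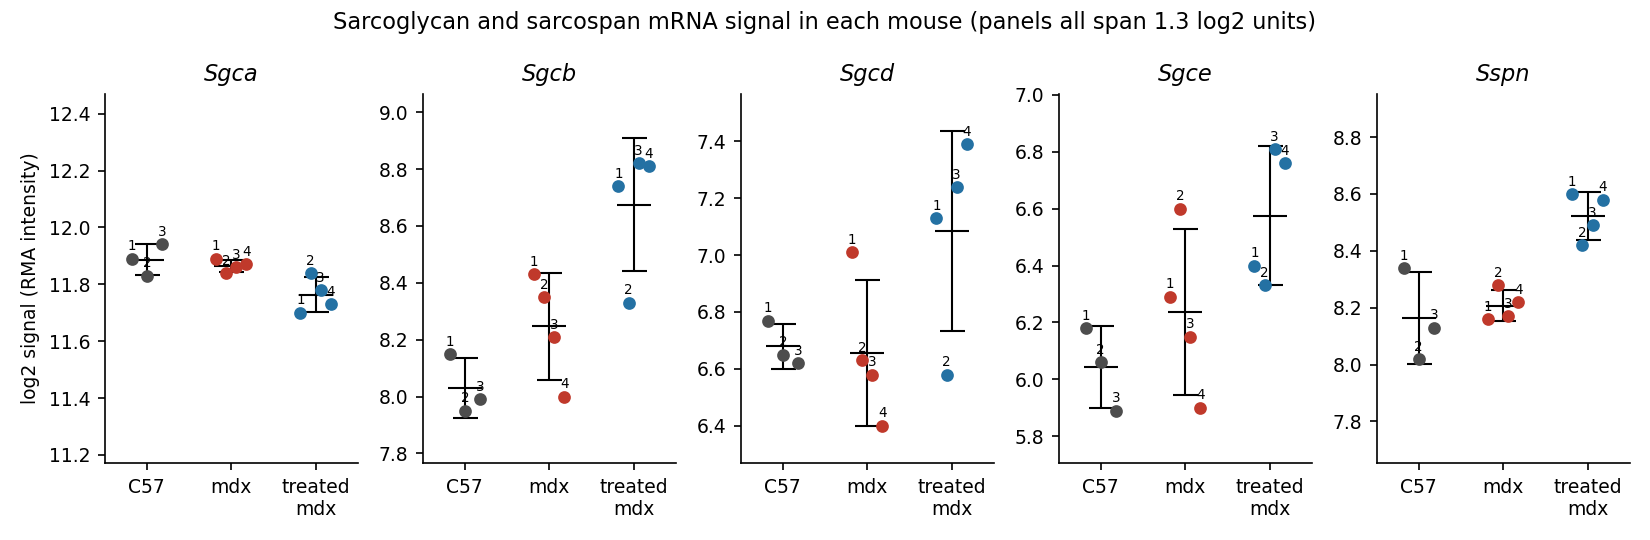
Log2 signal (vertical axis) of the 5 genes in each of the 11 mice, numbered by replicate within C57 (grey), mdx (red) and Pip6e-PMO-treated mdx (blue), with the group mean and SD as bars; all panels span the same log2 range. The treated mice lie highest for Sspn with no overlap, and treated mouse 2 is the lowest treated mouse for all genes but Sgca.

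No difference in these 5 transcripts between untreated mdx and C57 muscle passed the test. Calls rest on limma, two-sided, with p-values adjusted by Benjamini-Hochberg over 14494 tested probe sets and a threshold of 0.05. Of the 5 genes 0 were called in mdx against C57, where 12.0% of all tested probe sets were, and 0 had an unadjusted p under 0.05. By the methods' t-test 0 passed before or after adjustment as well. In none of the 5 were the groups free of overlap, compared with 24.3% of all probe sets. The differences ran from -0.03 to 0.22 on the log2 scale, with a median of 0.04 beside -0.01 for all tested probe sets.

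Alpha-sarcoglycan, the muscle-restricted subunit, was the steadiest. The signal of Sgca was 3795, 3641 and 3929 in C57 mice and 3795, 3666, 3717 and 3743 in mdx mice. The mdx mice all lay inside the C57 range, and the difference in log2 signal was -0.02 with a 95% interval of -0.20 to 0.15 (adjusted p = 0.916). The mean log2 signal was 11.89 ± 0.06 (SD, n = 3) in C57 and 11.87 ± 0.02 (SD, n = 4) in mdx.

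Delta-sarcoglycan binds beta-sarcoglycan in the first step of assembly. Sgcd read 109, 100.4 and 98.4 in C57 mice and 129, 99.0, 95.7 and 84.4 in mdx mice, so that the mdx group lay on both sides of the C57 group. Its difference was -0.03 (interval -0.42 to 0.37, adjusted p = 0.960), and its sign turned without C57 mouse 1 (0.02) or mdx mouse 4 (0.06). The mdx mice differed more among themselves (SD 0.26) than the C57 mice (SD 0.08) on the log2 scale.

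Sarcospan, the tetraspan-like partner of the sarcoglycans, read 324, 259.6 and 280.1 in C57 mice and 286, 311, 288 and 298 in mdx mice. Those 4 mdx values all fell between the lowest and the highest C57 mouse. The log2 difference was 0.04 (interval -0.17 to 0.26, adjusted p = 0.848), and without C57 mouse 2 it was -0.03.

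The beta and epsilon subunits had the largest mdx means relative to C57, yet neither passed the test. Sgcb read 284, 247 and 254 in C57 mice and 345, 326, 296 and 256 in mdx mice, with 3 of the 4 mdx mice above every C57 mouse. The difference in log2 signal of Sgcb was 0.22 (interval -0.09 to 0.52, adjusted p = 0.375). Sgce read 72.5, 66.7 and 59.3 in C57 mice and 78.2, 97.0, 71.0 and 59.7 in mdx mice, with a log2 difference of 0.19 (interval -0.18 to 0.56, adjusted p = 0.549). For both genes the upper end of the interval was above 0.5 log2 units.

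In Pip6e-PMO-treated mdx muscle, 4 of the 5 genes had higher means than in untreated mdx muscle, and 1 of them, Sspn, passed the test. The adjusted p of Sgcb was 0.0526, and Sgcd and Sgce did not pass either. Sgca had a lower mean. Of all tested probe sets, 7.26% were called higher in this comparison, and 9.29% had treated mice above every mdx mouse, as 1 of the 5 genes had. The median difference over the 5 genes was 0.34 log2 units, beside 0.02 for all tested probe sets and 0.32 for the 12 other tested genes of the complex described later.

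Sspn read 388, 343, 359.5 and 383 in the treated mice. The lowest treated mouse, mouse 2, lay above the highest mdx mouse (311). The mean log2 signal was 8.52 ± 0.08 (SD, n = 4) in treated and 8.21 ± 0.06 (SD, n = 4) in untreated mdx mice, a difference of 0.32 (SE 0.09, 1.24-fold, adjusted p = 0.0443). The groups stayed apart by this measure, but the call was a narrow one. It was lost on leaving out any 1 mouse other than C57 mouse 1 or treated mouse 2, with adjusted p up to 0.118, and was lost in the limma fit of these 2 groups alone (0.0565) and by the methods' t-test (0.0684 after adjustment). The difference itself stayed between 0.29 and 0.35 whichever mouse was left out, the latter without treated mouse 2 (adjusted p = 0.0187).

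**Figure D2:**
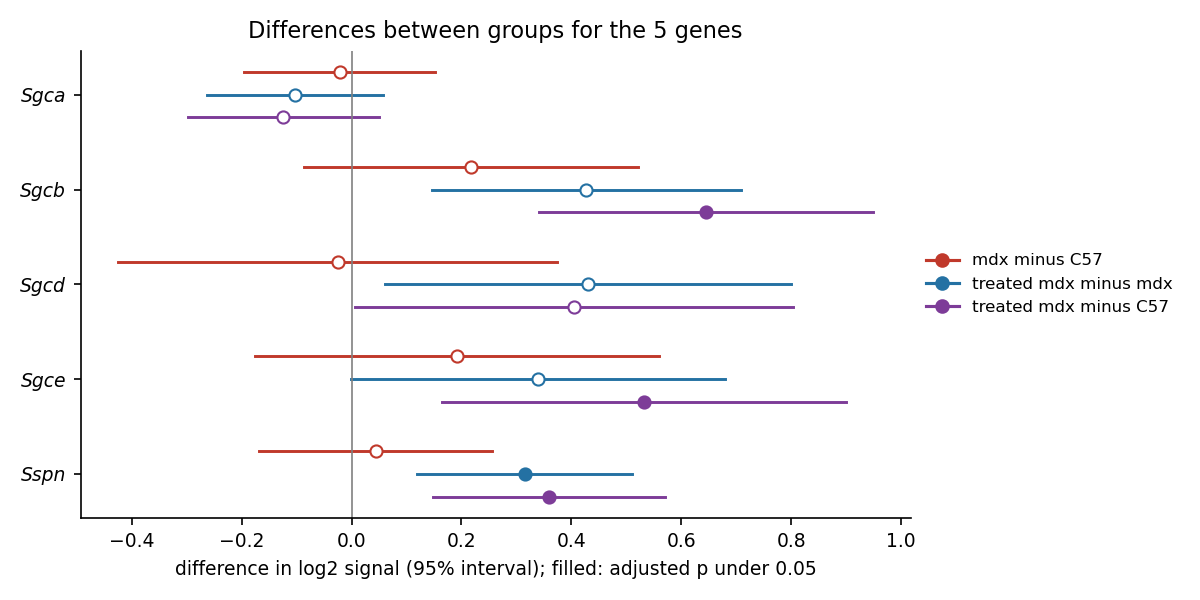
Differences in log2 signal (horizontal axis) of the 5 genes between groups, with 95% intervals from limma; filled points have an adjusted p under 0.05. All mdx minus C57 points (red) are open, and Sgcb, Sgce and Sspn are filled for treated minus C57 (purple).

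Sgcb read 428, 322, 452 and 449 in the treated mice. Mice 1, 3 and 4 lay above every mdx mouse, whereas mouse 2 lay inside the mdx range. The mean log2 signal was 8.68 ± 0.23 (SD, n = 4) after treatment, compared with 8.25 ± 0.19 (SD, n = 4) in untreated mdx, a difference of 0.43 (SE 0.13, 1.34-fold) whose adjusted p of 0.0526 missed the threshold. Without treated mouse 2 the difference was 0.54 and the adjusted p 0.00657.

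Sgcd read 140.1, 95.7, 151 and 168 in the treated mice. Mice 1, 3 and 4 again lay above all mdx mice, and mouse 2 was level with mdx mouse 3. The log2 difference of 0.43 (SE 0.17, adjusted p = 0.111) became 0.60 (adjusted p = 0.00960) without treated mouse 2.

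Sgce read 84.4, 80.4, 112 and 108, with mice 3 and 4 above all mdx mice and mice 1 and 2 within the mdx range. Its log2 difference was 0.34 (SE 0.16, adjusted p = 0.159), and 0.42 (adjusted p = 0.0684) without treated mouse 2.

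Sgca read 3327, 3666, 3517 and 3397, so that 3 treated mice lay below every mdx mouse and mouse 2 was level with the lowest. The difference was -0.10 log2 units (interval -0.26 to 0.06, adjusted p = 0.366), and -0.13 without treated mouse 2. Its sign was opposite to that of the other 4 genes, but the difference did not pass the test.

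**Figure D3:**
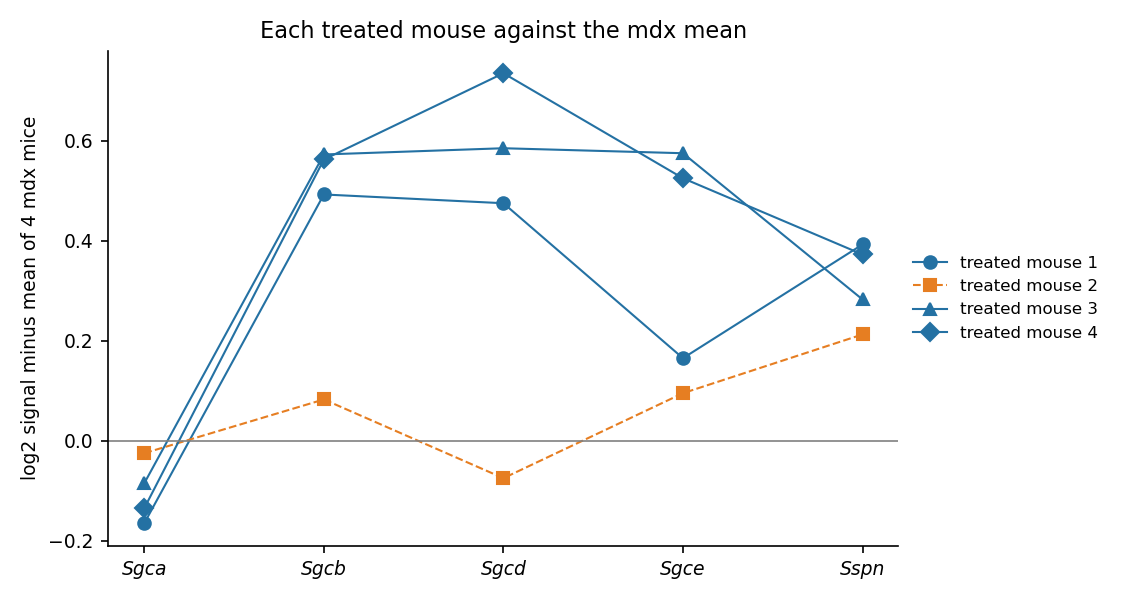
Log2 signal of each Pip6e-PMO-treated mouse minus the mean of the 4 mdx mice (vertical axis) for the 5 genes. Treated mice 1, 3 and 4 (blue) lie at 0.48 or above for Sgcb and Sgcd, whereas treated mouse 2 (orange) lies at 0.08 and -0.08.

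For Sgcb and Sgcd, the spread within the treated group was thus largely that between mouse 2 and the other 3. Without that mouse the median difference of the 5 genes was 0.42, beside 0.02 for all tested probe sets, and 3 of the 5 genes were called higher than in mdx (Sgcb, Sgcd and Sspn), where 16.4% of all probe sets were. With array weights, which are low for an array that departs from its group mean, 4 were called higher (the same 3 and Sgce). So were 19.0% of all probe sets. Leaving out any other mouse gave at most 1 call. By the methods' t-test on log2 values, 3 of the 5 genes had an unadjusted p under 0.05 (Sgcb and Sspn with higher and Sgca with lower treated means), where 25.1% of all probe sets had one in either direction. After adjustment, or at the joint p and fold threshold of the study, 0 of the 5 passed.

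Against C57 muscle, Sgcb, Sgce and Sspn passed the limma test with higher signal in treated mdx muscle, but none passed the methods' t-test after adjustment. Those 3 of the 5 genes were called higher, where 15.6% of all tested probe sets were, and in the same 3 every treated mouse lay above every C57 mouse, as in 17.9% of all probe sets. Before adjustment, 4 of the 5 genes had a p under 0.05 by the methods' t-test on log2 values. Sgcb, Sgce and Sspn had higher and Sgca lower treated means. At the joint p and fold threshold of the study 1 of the 5, Sgcb, passed (unadjusted p = 0.00708). The share of all probe sets passing in these ways was not counted. The 5 genes had a median difference of 0.41 log2 units, beside 0.00 for all tested probe sets, and of 0.57 beside 0.01 without treated mouse 2. This comparison shares its treated mice with the last one and its C57 mice with the first.

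Sgcb rose most, by 0.65 log2 units (SE 0.14, 1.56-fold, adjusted p = 0.00741), from a mean of 8.03 ± 0.11 (SD, n = 3) in C57. The call held on leaving out each of the 11 mice in turn, with adjusted p of 0.00129 to 0.0353. Without treated mouse 2 the difference was 0.76. By the methods' t-test its adjusted p was 0.0611 on log2 and 0.0789 on linear values. The difference fell to 0.36 (adjusted p = 0.434) with a term for the gene-span property of the arrays described at the end.

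Sgce rose by 0.53 log2 units (SE 0.17, 1.45-fold, adjusted p = 0.0390), from 6.04 ± 0.15 (SD, n = 3) to 6.58 ± 0.25 (SD, n = 4). This call was lost on leaving out any of the 3 C57 mice, mdx mouse 1 or 3, or treated mouse 3 or 4, with adjusted p up to 0.143. It was held without the other 4 mice, and without treated mouse 2 the difference was 0.61 (adjusted p = 0.0191). The call was also lost by the methods' t-test (0.105), with repeated quantile normalization (a difference of 0.39, adjusted p = 0.0838) and with no minimum signal (0.0562).

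Sspn rose by 0.36 log2 units (SE 0.10, 1.28-fold, adjusted p = 0.0206), from 8.16 ± 0.16 (SD, n = 3) in C57. Leaving out C57 mouse 2 (adjusted p = 0.0940), C57 mouse 3 (0.0700) or treated mouse 4 (0.0540) lost the call, and without treated mouse 2 the difference was 0.39 (0.0122). It was also lost by the methods' t-test (0.0771 on log2 values) and in the limma fit of these 2 groups alone (0.0540).

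Sgcd differed from C57 by 0.41 log2 units (interval 0.01 to 0.80, adjusted p = 0.121), with treated mouse 2 below every C57 mouse and the other 3 treated mice above them all. Without treated mouse 2 its difference was 0.57 (adjusted p = 0.0114), and 20.3% of all probe sets were then called higher. Sgca differed by -0.12 (interval -0.30 to 0.05, adjusted p = 0.264), and by -0.15 without treated mouse 2.

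Among the 11 mice the beta, delta, epsilon and sarcospan signals ran together and opposite to Sgca. Pearson's r between 2 of those 4 genes lay between 0.69 and 0.89, and that of Sgca with each of them between -0.79 and -0.69. These values describe 11 mice that share 3 groups and the same arrays, and carry no test. By the same measure, among 11841 genes, the signals most like Sgca were those of Tceb2 (r = 0.98), Pcbp4 (0.97) and Polr2j (0.96). Morf4l1, Sept2 and March7 were nearest to Sgcb (all 0.98), and Chmp5 (0.98), Dnaja2 and Atl2 (both 0.97) to Sgcd. For Sgce they were Rbm7, Pdlim5 (both 0.97) and Extl2 (0.96), and for Sspn Rab3gap1 (0.99), Senp7 (0.97) and Pnet-ps (0.96). None of the nearest genes was another member of the complex.

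The same fit covered other genes of the dystrophin-associated protein complex. Zeta-sarcoglycan (Sgcz) read 5.78 to 8.46 in the 11 mice, under the minimum signal, and was not tested.

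Of 13 other genes of the complex, 12 were tested. In mdx against C57, 2 of the 12 were called higher, where 7.06% of all probe sets were, and 0 lower (4.96% of all). They were Lama2, the laminin chain of the muscle basement membrane, which dystroglycan binds (0.69, adjusted p = 0.0291), and Sntb2, the beta-2 syntrophin adaptor (0.43, adjusted p = 0.0129). Neither was called without C57 mouse 3, and Lama2 also lost its call without C57 mouse 2 or mdx mouse 1, 2 or 3.

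Sntb2 was the 1 gene of the 12 called higher in treated against untreated mdx mice (0.44, adjusted p = 0.0177), where 7.26% of all probe sets were. Lower calls were 0 (3.88% of all). Sntb2 read 118.6 to 129.8 in C57 mice, 162 to 176.1 in untreated mdx mice and 211 to 265 after treatment, with no overlap between any of the groups. Of all probe sets, 24.3% had no overlap in mdx against C57. Treated mice lay above every mdx mouse in 9.29% and above every C57 mouse in 17.9%. Its treated rise lost its call without mdx mouse 4 or treated mouse 3. Without treated mouse 2 the calls were 6, which included Utrn, Sntb2, Dtna and Nos1 (all higher) and Cav3 (lower), and 28.4% of all probe sets were called in that fit.

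Treated against C57, 5 of the 12 were called higher, where 15.6% of all probe sets were, and 0 lower (8.96% of all). They were Lama2 (0.99, adjusted p = 0.00334), Sntb2 (0.87, 1.96e-04), Dtna, which encodes alpha-dystrobrevin (0.69, 0.0158), Sntb1, which encodes beta-1 syntrophin (0.68, 0.00519), and Utrn, the dystrophin homologue (0.62, 0.0262). Without C57 mouse 3 the count was 3, Lama2, Sntb1 and Sntb2. The median difference of the 12 genes was 0.18 against C57 and 0.32 against mdx, beside 0.41 and 0.34 for the 5 genes. How far the probe sets of the called genes span is taken up at the end.

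Dmd itself, whose probes cover the whole gene, read 58.5, 56.9 and 54.6 in C57 mice, 56.5, 41.1, 40.2 and 24.3 in mdx mice and 81.0, 45.6, 51.3 and 51.3 in treated mice. The groups overlapped, and the differences of -0.55 (mdx against C57, adjusted p = 0.198), 0.53 (treated against mdx, 0.142) and -0.02 (treated against C57) did not pass the test. These probes do not single out the exon that is skipped.

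**Figure D4:**
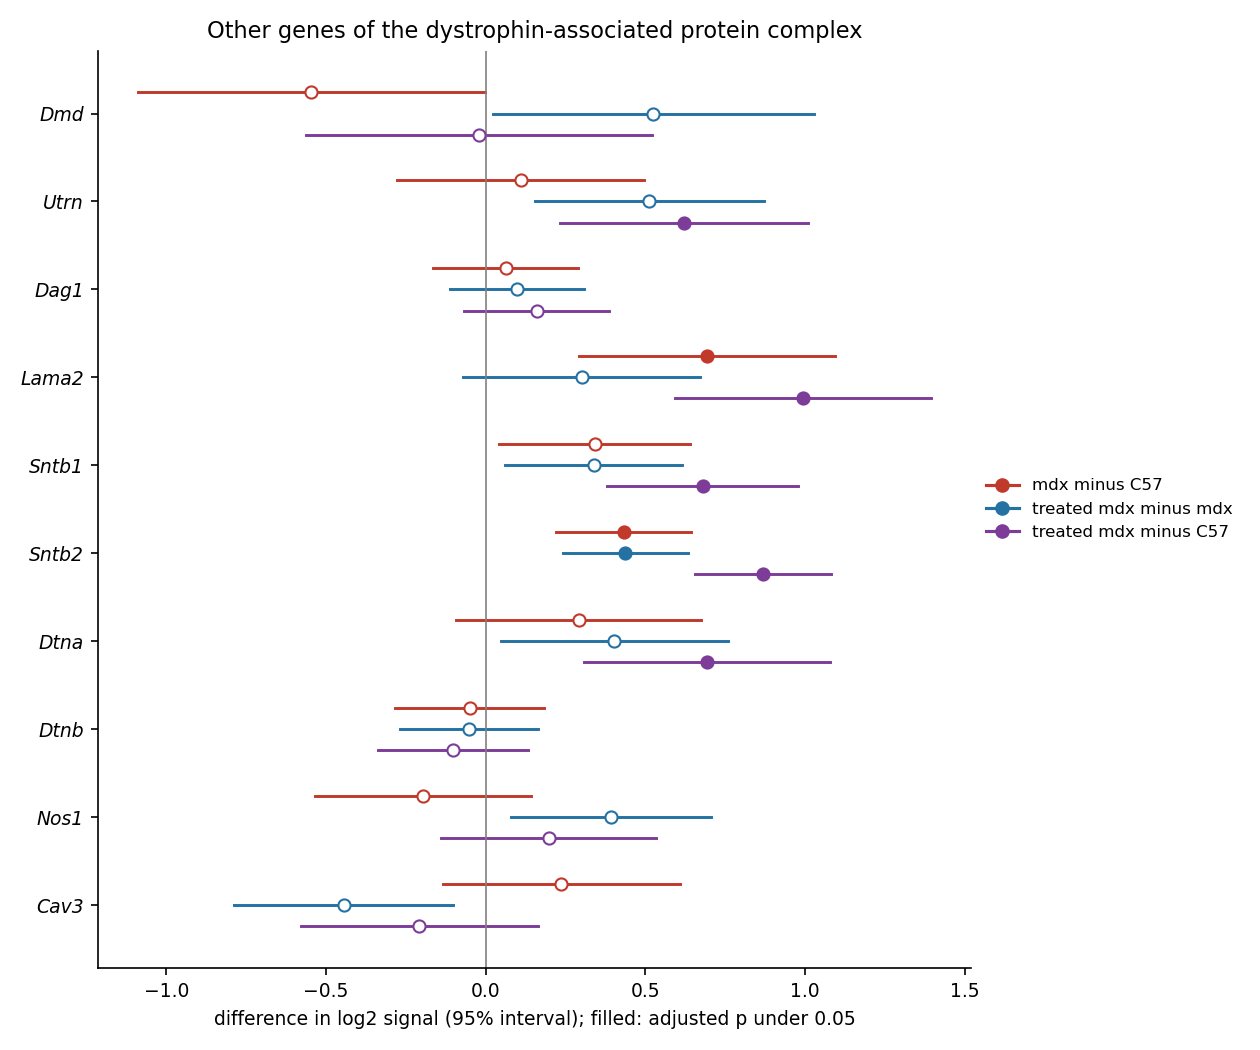
Differences in log2 signal (horizontal axis) with 95% intervals for 10 other tested genes of the dystrophin-associated protein complex; filled points have an adjusted p under 0.05. Sntb2 is filled in all 3 comparisons and Dag1 in none.

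A second list, of 12 genes that link the membrane to the matrix or the cytoskeleton by other routes, had 5 called higher in mdx against C57, where 7.06% of all probe sets were: Bgn, the proteoglycan biglycan, which binds sarcoglycans (0.82, adjusted p = 0.00189), Itgb1 (0.63, 0.0197) and Itga7 (0.57, 0.0319), the chains of the muscle laminin receptor, Vcl, vinculin (0.54, 0.0372), and Ahnak, a large membrane-associated scaffold (0.37, 0.0427). Itgb1 was the 1 of the 12 called in treated against mdx (0.58, 0.0284), where 7.26% of all were called higher. Against C57, treated muscle was called higher in 4 of the 12, where 15.6% of all were: Itgb1 (1.21, 3.72e-04), Vcl (0.73, 0.00585), Ahnak (0.59, 0.00292) and Bgn (0.42, 0.0347), while Itga7 read 0.44 (0.0548).

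Because the whole muscle was sampled, fewer cells of a type and less RNA per cell cannot be told apart, and markers of other cells were read beside the 5 genes. Of the 6 fibre markers 0 were called in any comparison. Among all tested probe sets, 7.06% were called higher and 4.96% lower in mdx against C57. These shares were 7.26% and 3.88% in treated against mdx, and 15.6% and 8.96% in treated against C57. Of the 5 endothelial markers, Pecam1 and Tek rose in treated against mdx and these and Kdr against C57. The summed endothelial signal lay between 1653 and 2068 in C57 mice, between 1868 and 2365 in mdx mice and between 2205 and 2993 in treated mice, of which mouse 2 was the lowest. The smooth muscle list, whose cells carry Sgce, Sgcb, Sgcd and Sspn too, had Cnn1 and Smtn lower in mdx than in C57, Cnn1 and Tagln lower in treated mice than in C57, and none of 5 called in treated against mdx, with sums of 2412 to 3047, 2145 to 2541 and 2163 to 2358.

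Fibroblast markers (sums of 3457 to 4726, 5020 to 6283 and 5137 to 7945, highest in treated mouse 2) had 2 of 5 higher in mdx and 4 of 5 higher in treated against C57. Macrophage markers, 5 of 5 measured higher in mdx (838 to 1251 against 2332 to 3756), stood at 1887 to 2419 in treated mice, again highest in mouse 2. Regenerating fibre markers were 5 of 5 higher in mdx (364 to 375 against 736 to 1196) and stood at 427 to 718 in treated mice, highest in mouse 2. All 4 tested adipocyte markers fell in treated against mdx (sums of 332 to 1013 in mdx against 148 to 448 in treated mice, highest in treated mouse 2). Mbp of Schwann cells fell in mdx and in treated against C57. The part of these cells in the differences of the 5 genes was not tested.

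The treated arrays also differed from the others by how much of the genome a probe set spans, a pattern noticed after the values were seen. With all tested probe sets split into 5 equal bins by span, the median treated minus mdx difference went from -0.08 and -0.10 in the 2 shortest bins to 0.10 and 0.18 in the 2 longest. Of the longest bin 14.8% were called higher and 0.448% lower. Treated minus C57 medians went from -0.14 to 0.22, whereas those of mdx minus C57 stayed between -0.04 and 0.01. Sgcd and Sgce lie in the longest bin, Sspn in the fourth, and Sgca and Sgcb in the third, where the median treated minus mdx difference was 0.00. The differences of Sgcb, Sspn, Sgcd and Sgce were above the median of their own bin and that of Sgca below it. Utrn, Lama2, Sntb1, Sntb2 and Dtna, the other genes of the complex called higher in treated against C57, all lie in the longest bin. In that bin 29.7% of all probe sets were called higher against C57.

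By mouse, the median deviation of the longest bin minus that of the shortest was 0.29, 0.05, 0.11 and 0.21 log2 units in treated mice 1 to 4, against -0.21 to -0.01 in the 7 other mice. Treated mouse 2, the lowest of the treated mice by this value, was also lowest for Sgcb, Sgcd, Sgce and Sspn. With this value as a term in the fit, 0 of the 5 genes were called in any comparison. The treated minus mdx difference was then 0.20 for Sgcb, 0.18 for Sgce and 0.15 for both Sgcd and Sspn, with adjusted p of 0.670 to 0.958 over the 5 genes, and that of Sgca turned to 0.02. The treated minus C57 difference was 0.36 for Sgcb (adjusted p = 0.434), 0.33 for Sgce (0.588), 0.16 for Sspn (0.608), 0.06 for Sgcd and 0.03 for Sgca. Since the value separates the treated mice from all others, the treatment and this property of the arrays cannot be told apart by that fit.

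**Figure D5:**
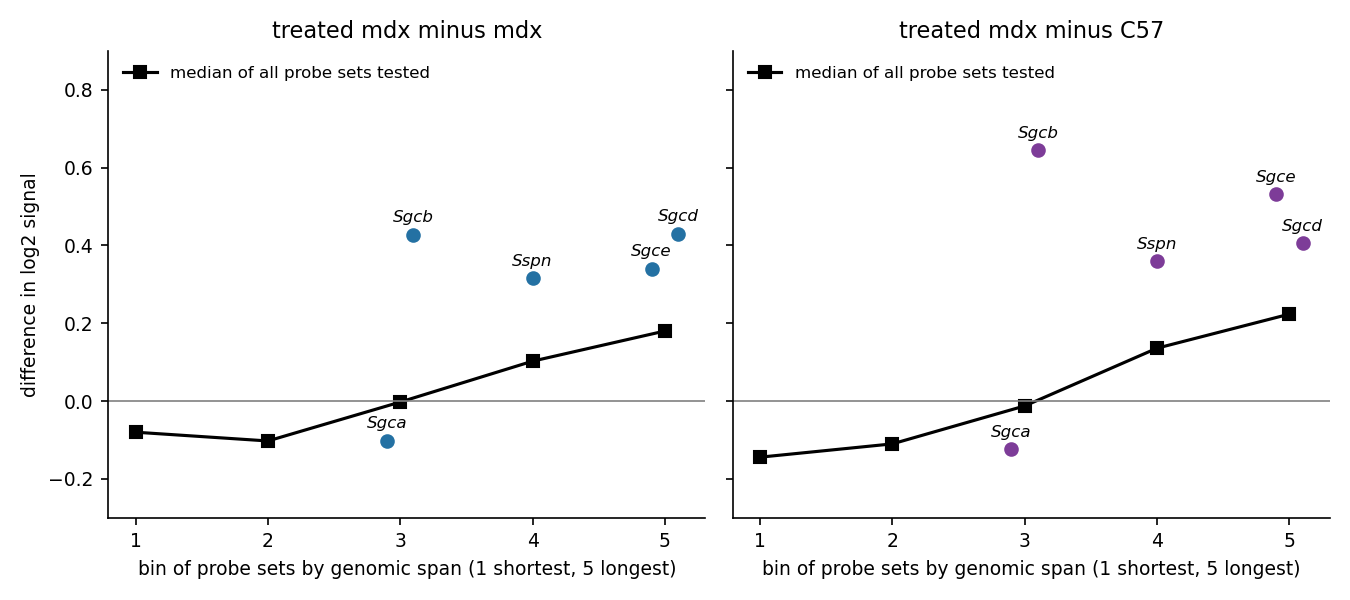
Median difference in log2 signal (vertical axis, black squares) of all tested probe sets in 5 equal bins by the genomic span of the probe set, shortest to longest, with the 5 genes as coloured points at their own bin; left, treated minus mdx; right, treated minus C57. The medians climb to 0.18 and 0.22 in the longest bin, and Sgcb stands at 0.43 and 0.65 in the third bin.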

How the data were processed

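Total RNA of 11 TA muscles was hybridised by the authors, 1 array per mouse. Per the methods and the submitters' processing notes, the authors used Affymetrix Expression Console and RMA (background correction, sketch-quantile normalization, median polish) and deposited intensities on the linear scale for 28350 probe sets, without pooling replicates. Their log2 was taken. A probe set was tested when the mean signal of some group reached 30, as the study's methods ask (14494). In R 4.3.3, limma 3.58.1 (lmFit, eBayes) fitted 3 group means to all 11 mice, two-sided, with Benjamini-Hochberg adjustment over all tested probe sets and no fold requirement. Where a gene had several probe sets, that of highest mean log2 signal was read. The 5 genes and all lists were chosen with earlier results of these data known. Values are given for these 5, for listed genes called in any comparison, for Dmd and for the 3 genes most correlated with each of the 5. Tested on simulated data for mdx minus C57 among 14494 probe sets, the fit recovered 24% of 100 changes of 0.5 log2 units and 86% of 100 changes of 1 log2 unit, with 5 false calls. Far fewer probe sets were changed there than the 12.0% called in the real comparison. The adjusted p depends on that share, so these rates do not give the recovery of the reported fit. Motifs were searched and figures drawn in Python with matplotlib. Some of the listed genes are not reported here. The number of arrays limits the precision. Alternatives (the methods' t-test, other filters, scalings, priors and weights, each mouse left out) are in the closing section.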

Additional observations from a re-analysis of the deposited data

Results flagged for a closer look

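In groups of 4 mice, the gap between an extreme mouse and its nearest neighbour was compared with the range of the group (Dixon's test at its 95% critical value) for 16 genes with values in the text, 32 groups in all, of which chance alone puts about 1 in 20 past that value. Among them 2 exceeded it. Sgcb in treated mouse 2 had a log2 signal of 8.33, against 8.74 to 8.82 in the other 3 treated mice (gap 0.837 of the range). Sntb1, the beta-1 syntrophin gene, had 7.05 in treated mouse 1, against 6.57 to 6.62 in the other 3 (0.896).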

How the results depend on the processing

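Of the 5 genes, the number called in mdx minus C57 was 0 under every alternative run. In treated minus mdx it was 1 and became 0 by the methods' t-test on log2 or linear values, limma on the 2 groups compared, arrays centred on their median, repeated quantile normalization, and the array term for long against short genes (an alternative added after the values were seen). It was 2 when all probe sets of a gene were averaged (Sgcb and Sspn), 4 with array weights, and 0 to 3 on leaving out 1 mouse. Treated minus C57, it was 3 and became 0 by either t-test and with the array term, and 1 to 4 on leaving out 1 mouse. For the other genes of the complex, mdx minus C57 gave 2, 1 by either t-test, and 0 to 2 on leaving out 1 mouse. Treated minus mdx gave 1, 0 by either t-test and with the array term, 6 with array weights and 0 to 6 on leaving out 1 mouse. Treated minus C57 gave 5, 1 by either t-test and with the array term, and 3 to 5 on leaving out 1 mouse. The causes were not tested. The sign turned for Sgca in mdx minus C57 with array weights (0.0075), with the array term (0.0078) and on leaving out 1 mouse (-0.05 to 0.005), and with the array term also in treated minus mdx (0.019) and treated minus C57 (0.027). On leaving out 1 mouse it also turned in mdx minus C57 for Sgcd (-0.14 to 0.06) and Sspn (-0.028 to 0.13). At a minimum signal of 100 Sgce was not tested and gave no value.

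The mice share only a number between groups. Of 10 same-number pairs 1 correlated above 0.1 in its deviations from the group means (r from -0.30 to 0.15), and 1 of 11 mice correlated best with its own number. With a replicate block the calls among the 5 genes were 0 in treated minus mdx and 1, Sgcb, in treated minus C57, and the called other genes of the complex 1 in mdx minus C57 and 0 in treated minus mdx.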
